A study of Mus musculus with 4 samples.

Results

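Grem1 and 8 further genes of bone morphogenetic protein (BMP) signalling were followed in RNA sequencing libraries from wild-type and Shh null mouse forelimbs. Shh is the gene of the Sonic hedgehog signal. The 9 genes, Grem1, Bmp2, Bmp4, Bmp7, Bmpr1a, Bmpr1b, Bmpr2, Nog and Bmper, were chosen by name, and all 9 were found among the 17712 genes of the deposited table. The study compared 2 groups of littermate embryos of the Swiss Webster stock, wild type and Shh null, with 2 libraries each, called technical replicates in the design text. The embryos had 33 to 35 somites, and their embryonic age was E10.25 by the age label and E10.5 by the source label. The labels used here do not describe the Shh allele or how many embryos a library holds. The p-values therefore reflect how far these 4 libraries scatter, and that scatter may be technical.

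BMP ligands are secreted dimers that bring type I and type II receptor kinases together, and the activated receptors phosphorylate Smad transcription factors. Secreted antagonists bind the ligands and keep them from the receptors. In the limb bud, Gremlin 1 from the distal mesenchyme holds BMP activity low, which lets the apical ectodermal ridge go on making FGFs, and these in turn maintain Shh at the posterior margin. BMP signalling itself is known for roles in ridge regression, interdigital cell death and cartilage formation.

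The libraries held 18456502 to 29620468 reads assigned to genes, and values are CPM, reads relative to the scaled library size. A single read was worth 0.0351 to 0.0551 CPM. Shh, the gene named in the label, was at 11.4 and 7.88 CPM in wild type and at 3.15 and 2.42 CPM in Shh null, lower as labelled (limma adjusted p = 0.00615; 0.0693 without Shh null 1 and 0.0767 without Shh null 2). Reads of Shh were thus fewer but not absent in Shh null, at 76 and 53. Replicates were not the same library deposited again, since the chi-square per degree of freedom between their reads was 22.4 for wild type and 14.8 for Shh null. Between the genotypes it was 17.2 to 45.1. Wild type 2 was at 21.1 with Shh null 1 and at 17.2 with Shh null 2. By this measure wild type 2 was no closer to its replicate than to the Shh null libraries. By the correlation of log2(CPM + 1) across genes, wild type 2 was closest to its replicate (r = 0.9956). The correlation was 0.9926 with Shh null 1 and 0.9939 with Shh null 2. The forelimb gene Tbx5 was at 61.5 CPM or more in every library, whereas the hindlimb genes Pitx1 and Hoxc10 stayed under 1 CPM in every library. The hindlimb gene Tbx4 was at 4.53 and 3.69 CPM in wild type, against 3.69 and 3.11 CPM in Shh null and was not called (limma adjusted p = 0.576). All 5 tested sex-linked genes were called, Xist higher and 4 Y-linked genes lower in Shh null, so the sex makeup of the libraries and the genotype cannot be told apart. Marker lists of tissue are given by their calls in limma, where 1.24% of all tested genes were called higher and 1.24% lower. The share of all tested genes at an unadjusted p under 0.05 is not given. Counts at that threshold, here and below, therefore stand without a background. Of the forelimb mesenchyme markers, 5 of 11 tested were called higher (summed level 1351 to 1444 CPM in wild type and 1938 to 1968 CPM in Shh null). Of the ridge markers, 3 of 7 tested were called lower and 1 higher (88.3 to 105 and 55.9 to 73.5 CPM). The lower ones were the FGF genes Fgf4, Fgf8 and Fgf9, and the higher one was Dlx3. Sp8, Sp6 and Rspo2 were not called, and their wild-type and Shh null libraries overlapped. None of the 10 surface ectoderm markers was called by limma, edgeR or DESeq2, with 2 higher at an unadjusted limma p under 0.05 (365 to 375 and 409 to 421 CPM). Of the macrophage markers, 1 of 6 tested, Cx3cr1, was called higher, and 5 had an unadjusted limma p under 0.05 (summed level 11.3 to 12.4 and 21.6 to 22.7 CPM, C1qa under 1 CPM in every library). In all 6 the Shh null libraries lay above the wild-type ones, as in 25.1% of all tested genes. The same held for 6 of the 10 surface ectoderm markers and 8 of the 11 forelimb mesenchyme markers. None of the 5 tested erythroid markers was called, with a summed level of 2938 to 10973 CPM in wild type and 3725 to 6329 CPM in Shh null. Among them, Hbb-y was at 5694 and 1492 CPM in wild type and at 2078 and 3509 CPM in Shh null. Replicates thus differed widely in erythroid RNA, and what made them differ was not tested. The part of all these markers in the results below was not tested.

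Among the antagonists, Grem1 was lower in the Shh null limbs. Its wild-type libraries were at 37.9 and 33.6 CPM and its Shh null libraries at 5.56 and 6.04 CPM, from 1081, 609, 134 and 132 reads. Both null libraries lay far below both wild-type libraries, and the libraries of a group lay close together. The means were 35.7 ± 3.10 and 5.80 ± 0.340 CPM (SD, n = 2), a 6.16-fold difference, with a 95% counting interval of 5.5 to 7.15 for the ratio of the pooled reads (6.26). Fold changes were fitted as log2(CPM + 1), a scale that shrinks the changes of low genes, and there the difference was −2.43 ± 0.14 (SE; 95% confidence interval −2.75 to −2.11; limma, adjusted p = 2.4e-05). Only 11 of the 13224 tested genes had an equal or lower log2 fold change, Grem1 included. In bulk tissue, fewer cells expressing a gene and less RNA per cell cannot be told apart.

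Grem1 was the 1 called gene among the 8 of the 9 that passed the filter (at least 1 CPM in at least 2 libraries), in a comparison where 2.48% of the tested genes were called and 1.24% were called lower. Counting tests on the recovered reads also called Grem1 lower and no other gene of the 8, in edgeR (1.21% of the tested genes called lower) and in DESeq2 (2.06%). None of the 8 was called higher by limma (1.24% of all tested), edgeR (1.28%) or DESeq2 (1.91%), while 1 was higher and 3 were lower at an unadjusted limma p under 0.05. The higher gene, Bmper, passed the filter only through its Shh null libraries, so its place in this count depended on its being high there. In all 9 genes the libraries of the groups did not overlap. Of the 8 tested, 4 were higher and 4 lower in this sense, in a table where the groups did not overlap for 50.2% of the tested genes (25.1% higher and 25% lower). Their median log2 fold change was −0.01, against −0.00048 over all tested genes.

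**Figure D1:**
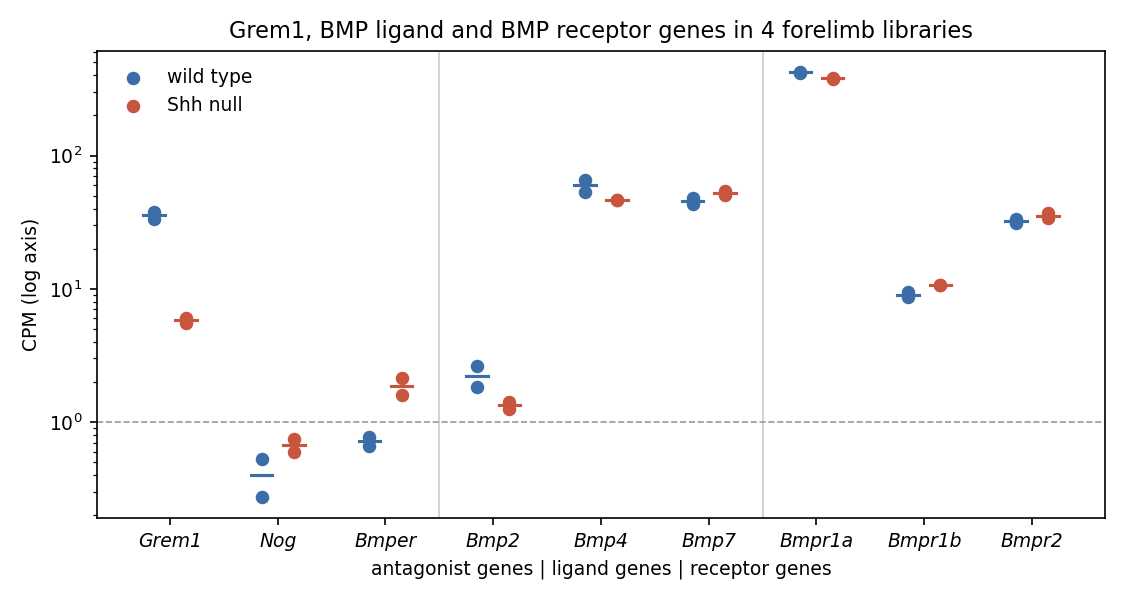
CPM of the 9 genes on a log axis in the 2 wild-type (blue) and 2 Shh null (red) libraries, ordered by role; each point is a library, short lines are group means, and the dashed line is 1 CPM. Grem1 drops from 33.6 to 37.9 CPM to 5.56 to 6.04 CPM, and the points of Nog lie under 1 CPM in all libraries.

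Sequence upstream of the start was available in the RefSeq promoter table (GRCm38.p6, the assembly of mm10) for 6 of the 9 genes: Grem1, Bmp4, Bmper, Bmpr1a, Bmpr1b and Bmpr2. The 250 bases before the start of Grem1 and of Bmper are shown because these antagonist genes had the largest log2 fold changes in opposite directions among the 8 tested. Capitals mark a GGCGCC motif, a GC-rich element known from BMP response regions.
Grem1 (chr2:113758649-113758898, minus strand): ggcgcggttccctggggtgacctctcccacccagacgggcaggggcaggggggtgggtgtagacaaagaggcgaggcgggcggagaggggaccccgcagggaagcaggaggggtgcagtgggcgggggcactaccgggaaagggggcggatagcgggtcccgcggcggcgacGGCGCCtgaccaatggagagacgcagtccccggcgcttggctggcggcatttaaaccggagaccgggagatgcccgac
Bmper (chr9:23222826-23223075, plus strand): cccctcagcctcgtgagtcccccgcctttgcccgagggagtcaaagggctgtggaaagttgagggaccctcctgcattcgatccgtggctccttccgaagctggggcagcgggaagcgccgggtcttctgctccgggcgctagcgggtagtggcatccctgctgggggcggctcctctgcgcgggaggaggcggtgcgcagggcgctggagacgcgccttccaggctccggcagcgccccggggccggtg

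The motif was found once before the start of Grem1, with its first base 78 bases upstream, and not in the Bmper window. It reads the same on both strands and was present in 3 of the 8 windows (Grem1, Bmpr1a and Bmpr2). These 8 come from 6 of the 9 genes, and the 3 of Bmpr1b include overlapping ones. The motif was in 9.59% of all 32851 promoter windows of the same length. The GLI motif GACCACCCA (reverse strand TGGGTGGTC), bound by the transcription factors of the hedgehog pathway, was in none of the 8 windows and in 0.225% of all windows. The Smad motif GTCTAGAC was likewise in none of the 8, and in 0.167% of all. Both strands were searched, no match overlapped another motif, and a match or its absence describes these windows only. Base composition was alike in both windows printed, with 72% G and C and 24 CpG in Grem1 and 71.6% and 24 CpG in Bmper, above the median of 52.4% over all windows. For Bmp4 it was 63.2% with 11 CpG, and for the 3 Bmpr1b windows 46.8% to 56.4% with 1 to 5 CpG. For Bmpr1a it was 78.8% with 36 CpG, and for Bmpr2 64% with 22 CpG. The GGCGCC motif holds only G and C, and all 3 windows with it were above the median in G and C.

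Grem1 spans bases 113746164 to 113758646 of chromosome 2 (mm10, minus strand) and lies beside Fmn1, a gene known to hold limb regulatory elements of Grem1 within its gene body. Fmn1 was at 7.26 and 7.99 CPM in wild type and at 5.06 and 5.31 CPM in Shh null, without overlap, and was not called (log2 fold change −0.48 ± 0.16 SE, 95% confidence interval −0.84 to −0.12, limma adjusted p = 0.156). Its interval did not reach that of Grem1. Scg5, which encodes a neuroendocrine secretory protein and starts 70.5 kb upstream of Grem1, was at 1.19 and 0.661 CPM against 1.33 and 0.778 CPM. Arhgap11a, which encodes a GTPase-activating protein, was at 53.2 and 66.0 CPM against 68.6 and 51.6 CPM. In both Scg5 and Arhgap11a the groups overlapped, and the sign of the log2 fold change differed between scalings. Ryr3, which encodes a calcium release channel, was at 1.02 and 1.05 CPM against 1.45 and 1.33 CPM and was not called (limma adjusted p = 0.553). Of 19 other protein-coding genes with a midpoint within 1500 kb of that of Grem1, 12 were tested and none was called by limma, edgeR or DESeq2, with 5 at an unadjusted limma p under 0.05. With 2.48% called over all tested genes, a count of 0 among 12 does not set these neighbours apart. That share is for adjusted p, so the 5 at an unadjusted p cannot be judged against it. Their log2 fold changes ran from −0.48 to 0.31.

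**Figure D2:**
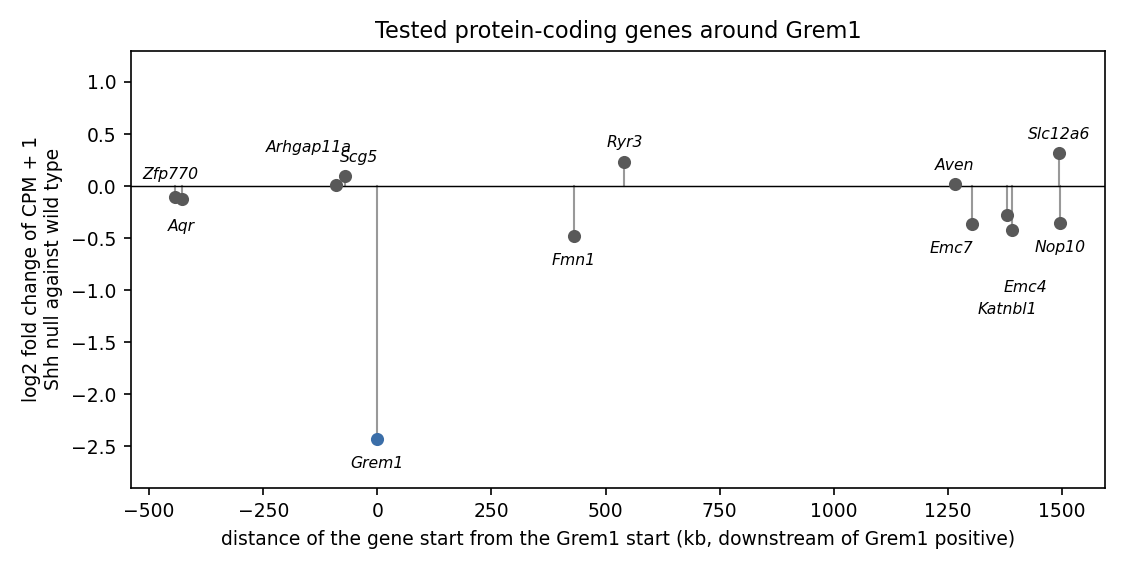
Log2 fold change of CPM + 1 (Shh null against wild type) of Grem1 (blue) and the 12 tested protein-coding neighbours (grey) against the distance of their starts from that of Grem1 in kb, positive downstream. Grem1 stands at −2.43, and the neighbours lie between −0.48 and 0.31.

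Bmper, on chromosome 9 (23223076 to 23485200, plus strand), encodes a secreted BMP-binding protein of the chordin type. It was at 0.772 and 0.661 CPM in wild type (22 and 12 reads) and at 2.16 and 1.60 CPM in Shh null (52 and 35 reads). Each null library was thus above both wild-type libraries, the opposite order to Grem1. The means of 0.717 ± 0.0785 and 1.88 ± 0.393 CPM (SD, n = 2) differed 2.62-fold, with a counting interval of 1.73 to 3.98 for the ratio of the pooled reads (2.60). The gene was not called by limma (log2 fold change 0.74 ± 0.20 SE, 95% confidence interval 0.29 to 1.19, adjusted p = 0.0905), nor by edgeR (adjusted p = 0.0783) or DESeq2 (0.22). In the authors' deposited table its log2 fold change was 1.37 with a false discovery rate of 0.0168, in a table where 2.33% of the genes were higher at a rate under 0.05. Bmper passed the filter through its Shh null libraries alone, so it could be tested only because it was higher there.

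Nog encodes Noggin, a secreted protein that blocks the receptor-binding faces of BMP dimers. On chromosome 11 (89300638 to 89302332, minus strand), it was covered by 15 and 5 reads in wild type and by 18 and 13 reads in Shh null, at 0.526, 0.275, 0.746 and 0.595 CPM. It was below the filter and not tested, though above the 0.105 to 0.165 CPM that a count of 0 would allow (3 reads; counting error only). The ratio of the pooled reads, 1.57, had a counting interval of 0.868 to 2.91, so a difference was not detectable at this depth.

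None of the 3 ligand genes was called by limma, edgeR or DESeq2, and the sign of their log2 fold changes differed. Bmp4, expressed in limb mesenchyme and ridge (chromosome 14, 46383520 to 46390669, minus strand), was at 65.7 and 53.7 CPM in wild type and at 46.3 and 46.5 CPM in Shh null. The null libraries were nearly equal, and the wild-type libraries differed more from each other (59.7 ± 8.50 and 46.4 ± 0.170 CPM, SD, n = 2). Bmp4 was not called (log2 fold change −0.35 ± 0.12 SE, 95% confidence interval −0.62 to −0.08, limma adjusted p = 0.162). Without wild type 2, the lower of the wild-type libraries, the value was −0.49, and without wild type 1 it was −0.21. Gm15217 overlaps Bmp4 on the other strand at the edge of the gene and was at 0.591 ± 0.0571 and 0.561 ± 0.146 CPM (SD, n = 2).

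Bmp2, known as a target of Shh in the posterior limb bud (chromosome 2, 133552159 to 133562885, plus strand), was low, at 2.63 and 1.82 CPM in wild type and 1.24 and 1.42 CPM in Shh null. Its counts were 75, 33, 30 and 31 reads. The ratio of the pooled reads, wild type over Shh null, was 1.74 with a counting interval of 1.26 to 2.43. In limma the difference was −0.46 ± 0.20 (SE; 95% confidence interval −0.91 to −0.0019) with an adjusted p of 0.268. The authors' deposited table gave Bmp2 a log2 fold change of −0.76 and a false discovery rate of 0.267. Bmp7 (chromosome 2, 172868012 to 172940321, minus strand), a ligand gene of ridge and mesenchyme, was at 47.9 and 43.4 CPM in wild type and at 53.9 and 50.3 CPM in Shh null. Both null libraries were above both wild-type libraries, by less than the test could call (log2 fold change 0.19 ± 0.11 SE, 95% confidence interval −0.06 to 0.44, limma adjusted p = 0.393).

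None of the 3 receptor genes was called. Bmpr1a, the main type I receptor gene of the early limb mesenchyme (chromosome 14, 34410734 to 34503341, minus strand), was at 420 and 424 CPM in wild type and at 384 and 378 CPM in Shh null. Replicates lay within a few CPM of each other, with means of 422 ± 3.20 and 381 ± 4.33 CPM (SD, n = 2). The difference of −0.15 ± 0.09 (SE, log2 scale; 95% confidence interval −0.36 to 0.07) was not called (limma adjusted p = 0.446), and it was −0.02 with quantile normalization. Bmpr1b, a type I receptor gene of prechondrogenic cells (chromosome 3, 141837136 to 142169425, minus strand), was at 8.63 and 9.48 CPM against 10.7 and 10.7 CPM (log2 fold change 0.22 ± 0.15 SE, 95% confidence interval −0.12 to 0.55, adjusted p = 0.471 in limma). Bmpr2, the type II receptor gene (chromosome 1, 59763400 to 59879014, plus strand), was at 31.4 and 33.5 CPM against 36.9 and 33.8 CPM (0.12 ± 0.12 SE, 95% confidence interval −0.14 to 0.38, adjusted p = 0.625 in limma). The upper bound for Bmpr1b, the widest of these intervals, leaves room for a difference of up to 0.55 on the log2 scale.

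Levels of different genes were set side by side as CPM per kb of exon. In wild type Bmpr1a had the highest level (66.4 ± 0.504 CPM per kb, SD, n = 2), followed by Bmp4 (26.6 ± 3.78), Bmp7 (11.3 ± 0.794), Grem1 (8.62 ± 0.748), Bmpr2 (1.80 ± 0.0834), Bmpr1b (1.52 ± 0.0999), Bmp2 (0.626 ± 0.162), Nog (0.237 ± 0.105) and Bmper (0.148 ± 0.0162). No neighbours in this order had overlapping libraries, though Nog and Bmper overlapped when the longest transcript was taken as length. In Shh null Grem1 stood at 1.40 ± 0.0820 CPM per kb, below Bmpr2 (1.97 ± 0.120) and Bmpr1b (1.79 ± 0.00549). At the bottom of that order Nog (0.396 ± 0.0633), Bmper (0.389 ± 0.0813) and Bmp2 (0.374 ± 0.0346) had overlapping libraries and could not be ranked.

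Within each role the mix of transcripts differed between the genotypes most among the antagonists. Grem1 made up 95.8% ± 0.935 of the summed level per kb of Grem1, Nog and Bmper in wild type and 64.1% ± 5.60 in Shh null (SD, n = 2). The sum itself was 9.62 and 8.39 CPM per kb in wild type and 2.23 and 2.14 CPM per kb in Shh null, a 4.13-fold difference. Over all antagonist genes of the pathway list described below, the sum was taken as CPM not divided by length. It was 565 to 571 CPM in wild type and 608 to 609 CPM in Shh null, the other way. Its largest part was Fstl1, at 244 and 256 CPM in wild type and 310 and 338 CPM in Shh null. Fstl1 was not called (limma adjusted p = 0.0835) and is named here after its values were seen. For the ligands the sum was 41.9 and 35.2 against 34.4 and 33.6 CPM per kb. Bmp7 provided 29.5% ± 1.57 of it in wild type and 38.1% ± 1.29 in Shh null (SD, n = 2). The ratio of Bmp4 to Bmp7 per kb was accordingly 2.45 and 2.21 in wild type, against 1.53 and 1.65 in Shh null, without overlap. Bmpr1a took 95.2% ± 0.216 of the receptor sum in wild type and 94.1% ± 0.107 in Shh null (SD, n = 2).

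Set against the ligands, Grem1 was at 0.218 and 0.230 of the summed ligand level per kb in wild type and at 0.0390 and 0.0433 in Shh null. These ratios differed 5.44-fold between the groups, close to the difference of Grem1 itself. An exact permutation test of 2 against 2 libraries gave p = 0.333 (two-sided) for this ratio and for the Bmp4 to Bmp7 ratio, the smallest p that the design allows. Protein was not measured.

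**Figure D3:**
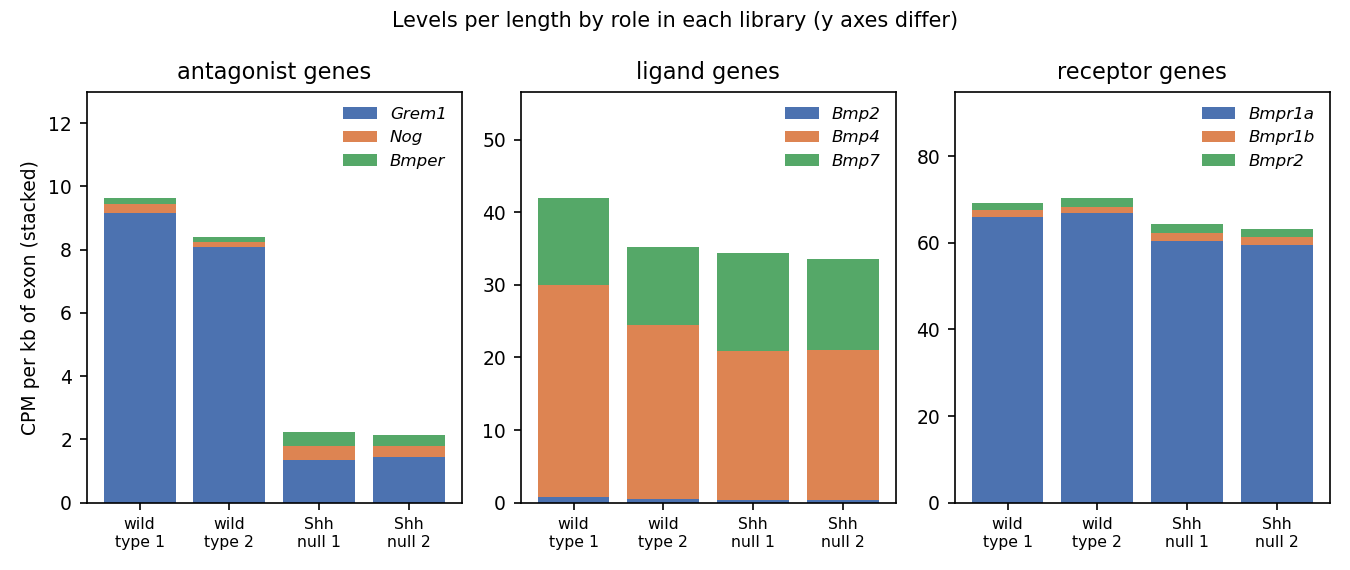
Stacked bars of CPM per kb of exon in each of the 4 libraries for the antagonist genes (left), ligand genes (middle) and receptor genes (right), each panel with its own axis from 0. The antagonist bars shrink from 8.39 to 9.62 to 2.14 to 2.23 CPM per kb with the loss of the Grem1 part, while Bmpr1a fills nearly all of every receptor bar.

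Around the 9 genes, a list of 61 BMP pathway genes in 6 roles was examined, of which 46 were tested. Limma called 1 of them higher and 5 lower and left 40 uncalled, with a median log2 fold change of 0.09 against −0.00048 over all tested genes. Of the 6 calls, 5 were antagonist genes and the other was Bambi, against 2.48% called over all tested genes. The antagonist group held 15 tested genes, of which 5 fell and 10 were not called (median log2 fold change 0.08). By sign, 10 of the 15 were above 0 and 5 below, so the group did not fall as a whole. At an unadjusted limma p under 0.05, 6 were higher and 5 lower. DESeq2 called 2 higher and 5 lower, against 1.91% and 2.06% of all tested genes.

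Smoc1, which encodes a matricellular protein that antagonises BMP signalling, fell 2.72-fold. Its libraries were at 12.9 and 16.5 CPM in wild type and at 6.47 and 4.35 CPM in Shh null (log2 fold change −1.30 ± 0.20 SE, limma adjusted p = 0.0111). Fst, the gene of the activin and BMP antagonist Follistatin, fell 3.32-fold, from 4.18 and 2.75 CPM to 1.04 and 1.05 CPM (adjusted p = 0.0252 in limma). Sost, whose product Sclerostin is best known as a WNT antagonist, fell 2.07-fold, from 8.98 and 9.92 CPM to 5.02 and 4.12 CPM (adjusted p = 0.0224 in limma). Chrdl1, which encodes a chordin-like antagonist, fell 1.74-fold, from 25.2 and 20.4 CPM to 12.7 and 13.5 CPM (adjusted p = 0.0309 in limma). These 4 genes went the way of Grem1, with smaller differences.

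The largest differences that were not called in the antagonist group, outside the 9 genes, were those of Smoc2, at 7.86 and 8.81 CPM against 22.2 and 12.1 CPM (adjusted p = 0.0827 in limma), and of Nbl1, the gene of the antagonist DAN, at 6.18 and 4.02 CPM against 8.87 and 7.91 CPM (0.129). Smoc2 was called higher by DESeq2 (adjusted p = 0.0065). In limma its log2 fold change was 0.90, and with 1 library left out it ran from 0.49 to 1.31. For Nbl1 it was 0.64, and with 1 library left out it ran from 0.39 to 0.90.

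Of these antagonist calls, those of Fst, Sost and Chrdl1 ended without Shh null 1 (limma adjusted p = 0.23, 0.13 and 0.267). Those of Smoc1, Fst, Sost and Chrdl1 ended without Shh null 2 (0.0815, 0.118, 0.12 and 0.114), and those of Fst and Chrdl1 without wild type 1 (0.0506 and 0.0833). With no filter on low values, those of Fst, Sost and Chrdl1 ended (0.0533, 0.0772 and 0.0772). Over all tested genes the calls also became fewer without a Shh null library, from 328 to 56 without Shh null 1 and 99 without Shh null 2. The call of Grem1 held in each of these fits.

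In the co-receptor group, Bambi, which encodes a pseudoreceptor that dampens BMP signalling, rose 1.41-fold, from 112 and 105 CPM to 142 and 165 CPM (log2 fold change 0.49 ± 0.11 SE, limma adjusted p = 0.0456). This call ended without Shh null 1 (0.142), without Shh null 2 (0.173) and with no filter (0.0834). The other 4 tested co-receptor genes were not called. Rgmb, a repulsive guidance molecule gene, had the largest difference among them, at 7.09 and 7.0 CPM against 6.05 and 4.94 CPM (adjusted p = 0.355 in limma), followed by Eng, the endothelial co-receptor gene, at 3.37 and 3.8 CPM against 4.23 and 4.12 CPM (0.627).

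Of the ligand genes outside the 9, 5 were tested and none was called by limma, edgeR or DESeq2, with 2 higher and 1 lower at an unadjusted limma p under 0.05. Gdf5 and Gdf6, ligand genes of joint and cartilage formation, had the largest differences on the log2(CPM + 1) scale. Gdf5 was at 3.4 and 2.7 CPM against 6.64 and 4.67 CPM (limma adjusted p = 0.107). Its log2 fold change was 0.70, and with 1 library left out it ran from 0.49 to 0.92. Gdf6 was at 1.47 and 1.71 CPM against 2.90 and 3.52 CPM (limma adjusted p = 0.089). In the authors' deposited table the false discovery rates were 0.0421 for Gdf5 and 0.0321 for Gdf6. By the ratio of mean CPM, Bmp8b, a further ligand gene and the 1 lower at an unadjusted p, differed more (2.12-fold, 1.40 and 1.27 CPM against 0.664 and 0.595 CPM; limma adjusted p = 0.192), and it is named here after its values were seen. It passed the filter through its wild-type libraries alone.

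None of the 7 tested receptor genes was called by limma, edgeR or DESeq2, and none had an unadjusted limma p under 0.05. Acvr2b, a type II receptor gene shared with activins, was at 25.2 and 27.4 CPM against 23.4 and 22.5 CPM, and the endothelial type I receptor gene Acvrl1 at 8.56 and 10.1 CPM against 11.9 and 9.33 CPM. Among 7 tested genes of ligand processing and storage, none was called by any of the 3 tools, and 2 were higher at an unadjusted limma p under 0.05. These were Fbn1, a microfibril gene (63.4 and 89.0 CPM against 118 and 96.8 CPM), and Bmp1, which encodes a chordin-cleaving protease (109 and 112 CPM against 148 and 125 CPM). With 1 library left out, the log2 fold change of Fbn1 ran from 0.26 to 0.74. Of the 4 receptor-activated and common Smad genes, none was called by the 3 tools, and 1 had an unadjusted limma p under 0.05. This was Smad9, at 1.37 and 1.27 CPM against 2.49 and 2.88 CPM (limma adjusted p = 0.0976, and a false discovery rate of 0.0381 in the authors' deposited table), while Smad4 was at 228 and 225 CPM against 211 and 215 CPM.

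**Figure D4:**
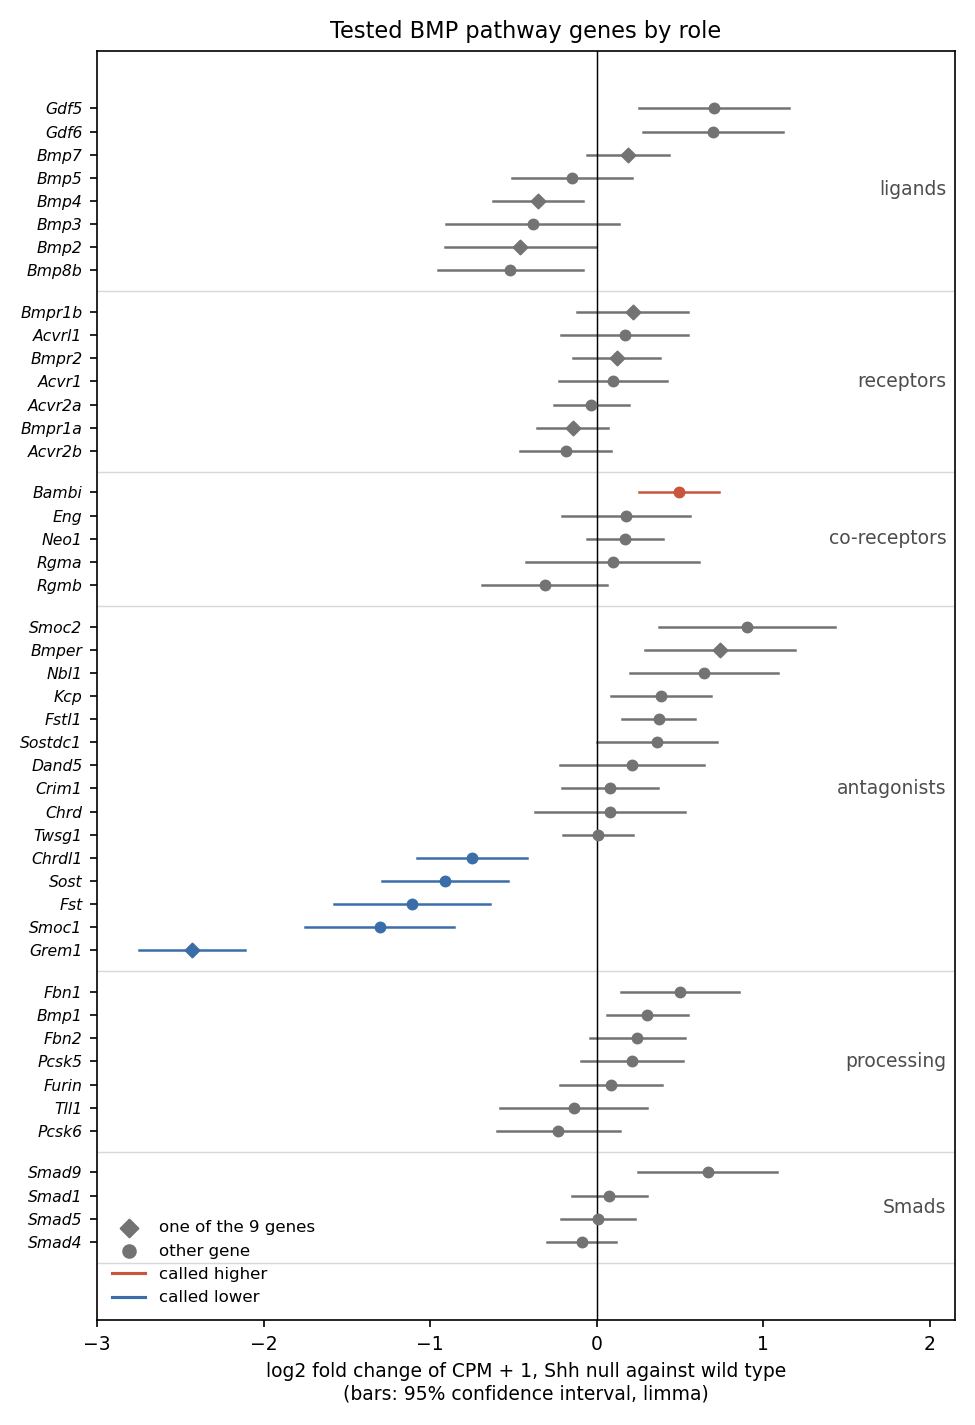
Log2 fold change of CPM + 1 (Shh null against wild type) with its 95% confidence interval from limma for the 46 tested BMP pathway genes, grouped by role; diamonds are genes among the 9, red marks genes called higher and blue genes called lower. Grem1 stands farthest from 0 at −2.43, and 5 of the 6 called genes are antagonists.

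Known BMP target genes were read in the same fit. Of 8 tested, 4 were called higher and 4 were not, against 1.24% called higher over all tested genes. In all 8 the Shh null libraries lay above the wild-type libraries, as in 25.1% of all tested genes. The largest differences were in Msx2 (26.1 and 25 CPM against 64.4 and 71.2 CPM) and Id2 (197 and 196 CPM against 314 and 376 CPM; called in limma with adjusted p = 0.0054, and 0.0555 without Shh null 2).

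Genes whose profile over the 4 libraries was near to that of Grem1, by the Euclidean distance of centred log2(CPM + 1) values, were Hoxd11 (distance 0.239), Hist1h2ab (0.249), Mamdc2 (0.281) and Ptch1 (0.316). Hoxd11 is a 5′ Hox gene of the distal limb, Ptch1 encodes a hedgehog receptor, and Hist1h2ab is a replication-dependent histone gene with near-identical copies that can share reads. Ptch1 was at 32.4 and 35.1 CPM in wild type and at 5.93 and 7.14 CPM in Shh null, and Mamdc2, a gene of an extracellular MAM-domain protein, at 8.46 and 7.38 CPM and 0.332 and 0.869 CPM. All 4 were called lower in limma, which follows from choosing them by nearness to Grem1 in these same libraries. Mamdc2 passed the filter through its wild-type libraries alone. Among the other tested genes of the 9, the nearest to Grem1 was Bmp2, at a distance of 1.98, and the farthest was Bmper, at 3.18. With 4 libraries in 2 groups, such a distance mainly measures the size and direction of the difference between the groups.

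**Figure D5:**
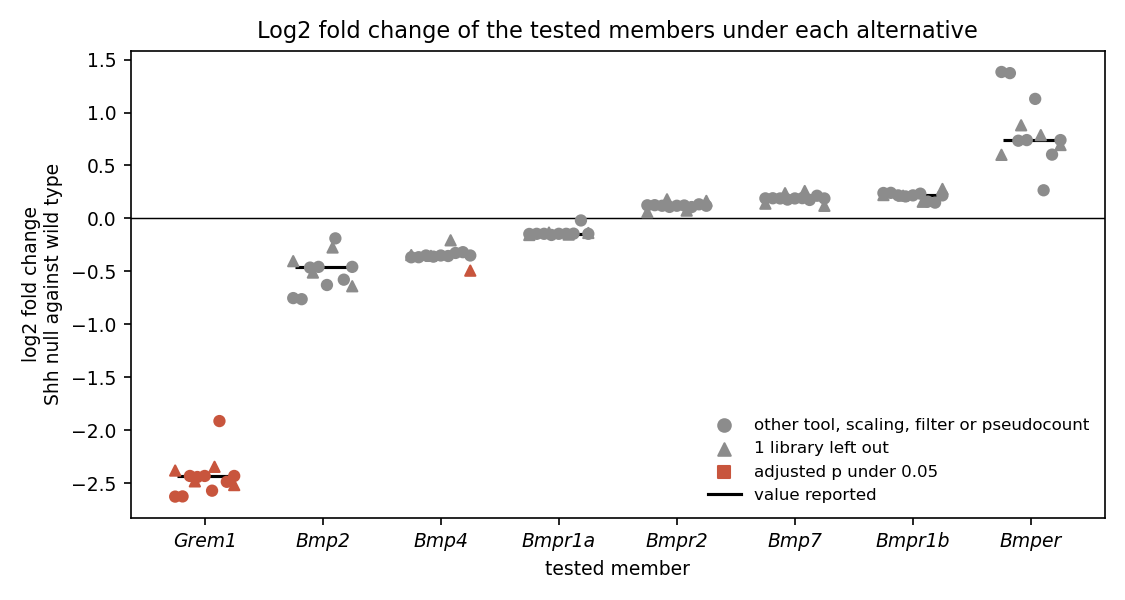
Log2 fold change (Shh null against wild type) of the 8 tested genes among the 9 as reported (black line), under other tools, scalings, filters and pseudocounts (circles) and with 1 library left out (triangles); red marks an adjusted p under 0.05. Grem1 stays between −2.63 and −1.91 and red throughout. The other red point is Bmp4 without wild type 2 (−0.49), a fit in which calls over all tested genes also became more numerous.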

How the data were processed

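RNA was extracted with TRIzol from forelimbs, per the labels' protocols. Per the submitters' processing notes, TopHat2 2.0.9, SAMtools, HTSeq 0.5.4p5, edgeR 3.4.2 and build mm10 were used; annotation and strand setting: not given in the sources used here. Reads of overlapping or antisense genes may therefore be mixed. The authors deposited 1 signal value per gene and library. Every value (100%, tolerance 0.001 reads) divided evenly by the smallest of its column, so whole reads were recovered, and edgeR's TMM scaling of these reads gave the deposited values, which are CPM. The authors' deposited comparison gives log2 fold changes and p-values with false discovery rates.

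Log2(CPM + 1) was fitted with limma 3.58.1 (R 4.3.3; intensity trend, genotype only) for 13224 genes with at least 1 CPM in at least 2 libraries (4488 below), Benjamini-Hochberg adjusted, called under 0.05. Alternatives were edgeR 4.0.16 (quasi-likelihood; 329 genes called) and DESeq2 1.42.0 on the recovered reads, other scalings, filters and pseudocounts, a replicate block, and each library left out. Steps were tested on simulated data. Counting intervals are 95% exact (Clopper-Pearson) for pooled reads and cover counting error only. Lengths are union exon lengths from GENCODE M21 (mm10).

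The 9 genes and the lists were chosen with earlier results of these data known. Besides the 9, named genes are all called pathway genes and the 2 largest uncalled per role, listed neighbours of Grem1, the 4 nearest profiles, Shh, and the 2 targets that differed most. A pathway gene and a further near profile are not reported here, and the pathway counts leave that gene out. Markers of tissue and sex and the overlapping gene were named to describe the libraries.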

Additional observations from a re-analysis of the deposited data

How the results depend on the processing

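The log2 fold change of Grem1 ranged from −2.63 to −1.91 over 13 alternatives and stayed called in each. None of the other 7 tested genes of the 9 changed sign in any alternative, and their calls changed only for Bmp4, so that leaving out 1 library gave 1 to 2 of the 9 called lower. Called BMP pathway genes were 3 higher with DESeq2, 2 higher with quantile normalization and with the replicate block, 0 higher and 2 lower with no filter, and 0 to 4 higher and 1 to 6 lower with 1 library left out. Over all tested genes, 253 were called higher and 273 lower with DESeq2, 79 and 91 with no filter, and 15 to 386 and 41 to 416 with 1 library left out. The log2 fold change changed sign for Smad4 (0.0175) and Scg5 (−0.043) with quantile normalization and for Arhgap11a (−0.0050) with median-ratio scaling; with 1 library left out it ran from −0.11 to 0.29 for Scg5 and from −0.20 to 0.21 for Arhgap11a. With the longest transcript as length, wild-type levels per kb were 12.4 for Bmp7, 70.8 for Bmpr1a and 1.69 for Bmpr1b. They were 2.51 for Bmpr2 and 0.189 for Bmper, and the order of the wild-type means was the same. The wild-type libraries of Nog (0.311 and 0.163) and Bmper (0.204 and 0.174) then overlapped and could not be ranked. Fewer samples or a different set of tested genes enter the leave-out and filter fits by construction; the cause of the other changes was not tested. The replicate numbers share no stated origin, and differences between replicates correlated at −0.203 between the genotypes across genes. With the replicate block Grem1 was at −2.43 (limma adjusted p = 3.11e-08), Smoc2 was called higher (0.0183), no other call among the named genes changed, and 220 genes were called higher and 176 lower. With 2 libraries a group, differences of the size seen in the receptor genes could not be resolved.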
